A study of Homo sapiens with 12 samples.

Results

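Clade B serpins are intracellular relatives of the secreted protease inhibitors of plasma, and 9 of them were followed here by gene symbol: SERPINB1, SERPINB2, SERPINB3, SERPINB4, SERPINB5, SERPINB6, SERPINB8, SERPINB9 and SERPINB13. They were chosen by name with earlier results on these arrays known, so their values below are a description and carry no test of their own. Where they are set against the threshold of the fit, that is a description too. Of these 9 genes, 7 had a probe (10 probes in all) and 6 were among the 11808 genes tested, out of 20046 genes with a symbol on the array. SERPINB9 had a pair of probes and was detected on 0 of 12 arrays. SERPINB2 and SERPINB6 were not analysed here. 

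The cells were HCC827, a human lung adenocarcinoma line with an activating EGFR mutation, in a pair of forms. Per the labels, HCC827-Del-TM (Del-TM) carries EGFR L747-S752 together with T790M, the substitution known for resistance to early EGFR inhibitors, and HCC827-Del (Del) carries EGFR L747-S752 alone. The 4 groups, each of 3 biological replicates per the labels, were Del-TM with 2.5 µM decitabine plus 1 µM vorinostat, Del-TM with DMSO, Del with the same drugs, and Del with DMSO, all for 72 h. Decitabine inhibits DNA methyltransferases and vorinostat inhibits histone deacetylases. The drugs were given together in every treated culture, and each EGFR genotype is 1 cell line, so drug from drug and genotype from line cannot be told apart. The study's title concerns mutant EGFR, the TET1 demethylase and silenced tumour suppressors. 

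Serpins inhibit proteases by offering a reactive loop as bait: the protease cuts it, the serpin refolds, and the enzyme stays trapped. Clade B members lack a classical secretion signal and mostly guard the cytosol and nucleus against proteases leaking from lysosomes or granules. SERPINB3 and SERPINB4, the squamous cell carcinoma antigens, are made by squamous epithelia and by airway epithelium under type 2 cytokines and serve as serum markers of squamous tumours. SERPINB5 (maspin), which does not act as a classical inhibitor, is known as a tumour suppressor whose promoter is methylated in many cell types that do not make it. 

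These genes lie in 2 clusters. RefSeq places 10 clade B genes on chromosome 18 within 542.8 kb (GRCh38.p14, chr18:63476958-64019779), in the order SERPINB5, SERPINB12, SERPINB13, SERPINB4, SERPINB3, SERPINB11, SERPINB7, SERPINB2, SERPINB10 and SERPINB8. It places 3 on chromosome 6 within 139.5 kb (chr6:2832332-2971793), in the order SERPINB1, SERPINB9 and SERPINB6. SERPINB3 and SERPINB4 are neighbours on the minus strand and near-copies of each other. The 150 bases before their starts lie outside the transcripts, so they do not show how alike the RNAs are. They are given with capitals marking the 3 bases at which the stretches differ (RefSeq, GRCh38.p14, minus strand, chr18:63661894-63662043 for SERPINB3 and chr18:63644257-63644406 for SERPINB4).
SERPINB3: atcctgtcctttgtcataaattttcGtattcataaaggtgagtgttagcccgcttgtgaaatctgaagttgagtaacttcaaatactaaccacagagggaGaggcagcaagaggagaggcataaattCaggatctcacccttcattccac
SERPINB4: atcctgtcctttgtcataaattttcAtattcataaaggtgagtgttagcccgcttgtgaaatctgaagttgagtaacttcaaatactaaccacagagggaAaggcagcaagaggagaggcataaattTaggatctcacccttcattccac
Over the whole 300-base window (250 bases before the start and 50 after), the pair differed at 4 bases, an identity of 98.67%. Probe sequences were not used here, so whether a probe assigned to SERPINB3 also binds SERPINB4 RNA, or the reverse, was not tested.

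Arrays of a group correlated across genes at r = 0.995 to 0.996, and arrays of different groups at 0.931 to 0.972. Between 16251 and 19671 of 47323 probes were detected per array, at a detection p under 0.01, and median signals ran from 95.4 to 104. The epithelial label held: EPCAM, CDH1, KRT8, KRT18 and KRT19 were detected on all 12 arrays, as were the lung genes NKX2-1 and NAPSA, while SFTPB was detected on the 6 control arrays only. Of the squamous markers with a probe, KRT5 was detected on 0 arrays, KRT14 on 1 and DSG3 on 3 (treated Del). The leukocyte markers PTPRC and CD3E were detected on 0 arrays, LYZ on 1 and CD14 on 12. Of the fibroblast markers, COL1A1 was detected on 12 arrays and COL3A1, DCN, PDGFRB and THY1 on 0. 

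SERPINB3 and SERPINB4 had the same order of groups, with treated Del-TM far above the other 3 groups and untreated Del below detection. SERPINB3 inhibits the lysosomal cysteine proteases cathepsins L, K and S. On its brighter probe it read 10.40, 10.65 and 10.63 on the log2 intensity scale in treated Del-TM, 7.01, 7.18 and 7.05 in untreated Del-TM, 6.19, 6.21 and 6.09 in treated Del, and 4.51, 4.76 and 4.60 in untreated Del. No 2 groups overlapped, and the 3 untreated Del arrays were not detected. Drugs raised SERPINB3 11.2-fold in Del-TM (log2 fold change 3.48, SE 0.0908). In Del the fitted log2 fold change was 1.54, and against the detection limit the gene was at least 2.29-fold higher with drugs.

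SERPINB4, which prefers the serine proteases cathepsin G and chymase, read 11.36, 11.27 and 11.45 in treated Del-TM, 7.34, 7.09 and 7.16 in untreated Del-TM, 6.95, 6.91 and 6.71 in treated Del, and 4.23, 4.41 and 4.40 in untreated Del, where it was not detected. The closest groups were untreated Del-TM and treated Del, whose arrays did not overlap. With drugs SERPINB4 rose 17.9-fold in Del-TM (log2 fold change 4.16, SE 0.0925), ranking 2 from the highest of 11808 genes, where SERPINB3 ranked 9. In Del it was at least 3.71-fold higher with drugs (fitted log2 fold change 2.51). By fitted values, which depend on undetected levels in untreated Del, SERPINB4 ranked 82 there and SERPINB3 ranked 247. The mRNA came from whole cultures, so fewer expressing cells and less RNA per cell cannot be told apart, here or below.

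Both genes were also higher in Del-TM than in Del. With DMSO, SERPINB3 was at least 4.32-fold and SERPINB4 at least 4.69-fold higher in Del-TM (fitted log2 differences 2.46 and 2.85). With drugs, the differences were 21.0-fold for SERPINB3 (log2 4.39) and 22.6-fold for SERPINB4 (log2 4.50), with all arrays of both lines detected. As fitted, the drug effect in Del-TM exceeded that in Del by 1.94 for SERPINB3 (SE 0.128) and by 1.65 for SERPINB4 (SE 0.131) on the log2 scale. Because untreated Del was below detection, the drug effect in Del is only bounded from below. The size and sign of these last values are therefore open. In the authors' deposited log2 values, which are not background-subtracted, the Del drug differences were 0.55 and 1.06, the differences between treated lines 3.42 and 3.81, and the differences of drug effects 2.35 and 2.54.

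The dimmer probe of SERPINB3 limited what could be seen of it. It read 6.70, 6.52 and 6.52 in treated Del-TM and was detected on 0 of the other 9 arrays, where its group means lay between 4.26 and 4.31. Its log2 fold change was thus 2.27 in Del-TM (at least 2.88-fold), and -0.00 in Del with both groups below detection. Between treated lines it was at least 3.46-fold higher in Del-TM (fitted log2 difference 2.32). The gain of SERPINB3 in treated Del-TM was seen by both probes, while its levels in untreated Del-TM and in treated Del rested on 1 probe of the gene.

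**Figure D1:**
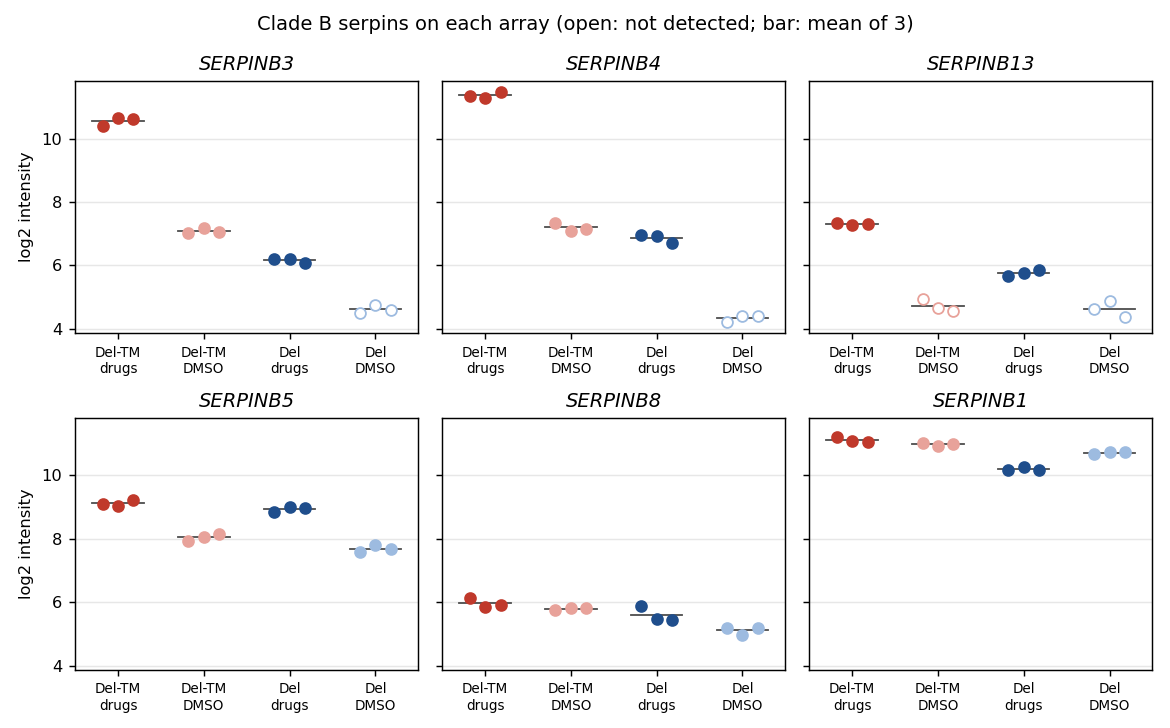
Log2 intensity (y axis) of the 6 tested genes on each of 12 arrays, by group (x axis: Del-TM with drugs, Del-TM with DMSO, Del with drugs, Del with DMSO). Points are arrays, open where the probe was not detected, and bars are means of 3. SERPINB3 and SERPINB4 stand highest in treated Del-TM (10.40 to 10.65 and 11.27 to 11.45) and are open in untreated Del, SERPINB13 is open in both DMSO groups, and SERPINB5 is higher with drugs in both lines.

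SERPINB13 (headpin), known from skin and oral epithelium as an inhibitor of cathepsins L and K, was detected with drugs and on 0 of 6 DMSO arrays. It read 7.35, 7.26 and 7.32 in treated Del-TM, 4.93, 4.65 and 4.55 in untreated Del-TM, 5.67, 5.76 and 5.84 in treated Del, and 4.62, 4.88 and 4.39 in untreated Del. Treated arrays lay above DMSO arrays in both lines without overlap, and the DMSO groups overlapped each other. It was at least 4.78-fold higher with drugs in Del-TM (fitted log2 fold change 2.60, SE 0.120, rank 25 from the highest) and at least 1.73-fold higher in Del (fitted 1.13). With drugs, Del-TM exceeded Del by 1.55 on the log2 scale, a 2.94-fold difference, and by 0.85 in the authors' deposited log2 values.

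SERPINB5 (maspin) rose with drugs in both lines. It read 9.10, 9.04 and 9.22 in treated Del-TM, 7.92, 8.06 and 8.16 in untreated Del-TM, 8.85, 9.00 and 8.96 in treated Del, and 7.58, 7.79 and 7.68 in untreated Del, detected on all 12 arrays. The drug-treated arrays of either line lay above all 6 DMSO arrays. The drug effect was 2.11-fold in Del-TM (log2 1.07, SE 0.0858) and 2.39-fold in Del (log2 1.26, SE 0.0858), and the effects differed by -0.18 (SE 0.121), which did not pass the threshold of the fit. Untreated Del-TM was 1.29-fold above untreated Del (log2 0.36), a call lost when arrays were scaled by their medians instead of by quantiles (log2 0.30). Between treated Del-TM and treated Del the log2 difference was 0.18 (SE 0.0858), also not past the threshold, though the arrays of these groups did not overlap. It was called with cyclic loess scaling (0.22), without background correction (0.16) and in the authors' log2 values (0.16).

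SERPINB8, an inhibitor of the proprotein convertase furin, was detected on all 12 arrays by its brighter probe and rose with drugs in Del. That probe read 6.14, 5.85 and 5.91 in treated Del-TM, 5.74, 5.82 and 5.81 in untreated Del-TM, 5.87, 5.45 and 5.45 in treated Del, and 5.19, 4.95 and 5.20 in untreated Del. The treated groups of the lines overlapped, since 1 treated Del array stood above the other two. Its log2 value of 0.18 for the drugs in Del-TM did not pass the threshold, and in Del it rose 1.39-fold (log2 0.48, SE 0.117). For SERPINB8 the drug effects of the lines differed by -0.30 (SE 0.166), not past the threshold, though called with median scaling (-0.48). It was 1.60-fold higher in untreated Del-TM than in untreated Del (log2 0.68) and 1.30-fold higher between treated lines (log2 0.38), the last call being lost with median scaling (0.16) and without treated Del replicate 2 (0.31), treated Del replicate 3 (0.31) or treated Del-TM replicate 1 (0.29). The dimmer probe gave log2 values of 0.26 in Del-TM and 0.47 in Del for the drugs, detected on 8 of 12 arrays.

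SERPINB1, which inhibits neutrophil elastase, cathepsin G and proteinase 3 and guards leukocytes against their own granules, was the 1 tested gene of the set that fell in any comparison. It read 11.21, 11.08 and 11.04 in treated Del-TM, 11.00, 10.91 and 11.00 in untreated Del-TM, 10.15, 10.25 and 10.18 in treated Del, and 10.67, 10.73 and 10.73 in untreated Del. All 3 treated Del arrays lay below the other 9 arrays. For the drugs in Del-TM its log2 value was 0.14 (SE 0.0699), not past the threshold, though called with cyclic loess scaling (0.22) and without background correction (0.14), and in Del it fell by 0.52 on the log2 scale (SE 0.0699). The difference of drug effects was 0.66 (SE 0.0988), and treated Del-TM exceeded treated Del 1.89-fold (log2 0.92). Untreated Del-TM was 1.20-fold above untreated Del (log2 0.26), a call lost with median scaling (log2 0.23). 

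SERPINB9, the granzyme B inhibitor of cytotoxic lymphocytes and their targets, gave group means of 4.26 to 4.42 on one probe and 4.32 to 4.46 on the other, with no array reaching detection. It had no fold change to report.

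Of the 6 tested genes, 4 were called higher and 0 lower with drugs in Del-TM (SERPINB3, SERPINB4, SERPINB5 and SERPINB13), where 21.7% of all tested genes were called higher and 24.1% lower. In Del, 5 were called higher and 1 lower, against 24.8% and 26.5% of all genes. Between untreated lines 5 were higher in Del-TM and 0 lower (16.2% and 20.3% of all genes), and between treated lines 5 were higher and 0 lower (29.4% and 33.7%). The difference of drug effects was called positive for 4 and negative for 0 (20.3% and 22.3%). For SERPINB3, SERPINB4 and SERPINB13 among these, untreated Del lay below detection, so size and sign are open. The medians that follow use fitted values, also where a group was below detection. Median log2 values of the 6 were 1.84 for the drugs in Del-TM, 1.19 for the drugs in Del, 0.52 between untreated lines, 1.23 between treated lines and 1.07 for the difference of effects, beside medians of -0.03 to 0.01 over all genes. These counts follow from how the genes were chosen, and nothing is read from them; the comparisons also share arrays. With median scaling, the share of calls that were higher moved to 61.2% from 48.4% for the drugs in Del, to 30.3% from 46.6% between treated lines and to 32.2% from 47.6% for the difference of effects, with the median of all genes shifting by -0.15 between treated lines and by -0.11 for the difference of effects.

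Clade B genes outside the named set were read on the same arrays. SERPINB7 (megsin), named for kidney mesangial cells and made in skin, lies between SERPINB11 and SERPINB2. It read 8.89, 8.87 and 8.98 in treated Del-TM, 7.05, 6.89 and 6.64 in untreated Del-TM, 7.06, 7.25 and 7.33 in treated Del, and 4.87, 4.63 and 4.69 in untreated Del, where it was not detected. All treated Del-TM arrays stood above the rest, and treated Del just above untreated Del-TM. Drugs raised it 4.15-fold in Del-TM (log2 2.05, SE 0.108, limma adjusted p = 4.82e-09) and at least 4.75-fold in Del (fitted log2 2.49, adjusted p = 3.25e-10). Untreated Del-TM was at least 3.72-fold above untreated Del (adjusted p = 2.94e-09), and treated Del-TM was 3.25-fold above treated Del (log2 1.70, adjusted p = 9.97e-09).

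The difference of drug effects for SERPINB7 was not settled. It was -0.43 on the brighter probe (SE 0.153, adjusted p = 0.0344) and 0.34 on the other probe (adjusted p = 0.0631), and it was lost or turned under 15 of 26 alternatives. With the replicate number as a block its adjusted p was 0.0503. The drug effect itself was positive on both probes, the dimmer giving log2 values of 1.97 in Del-TM and 1.62 in Del. SERPINB10, SERPINB11 and SERPINB12, which lie among the genes that rose, were detected on 0 of 12 arrays.

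**Figure D2:**
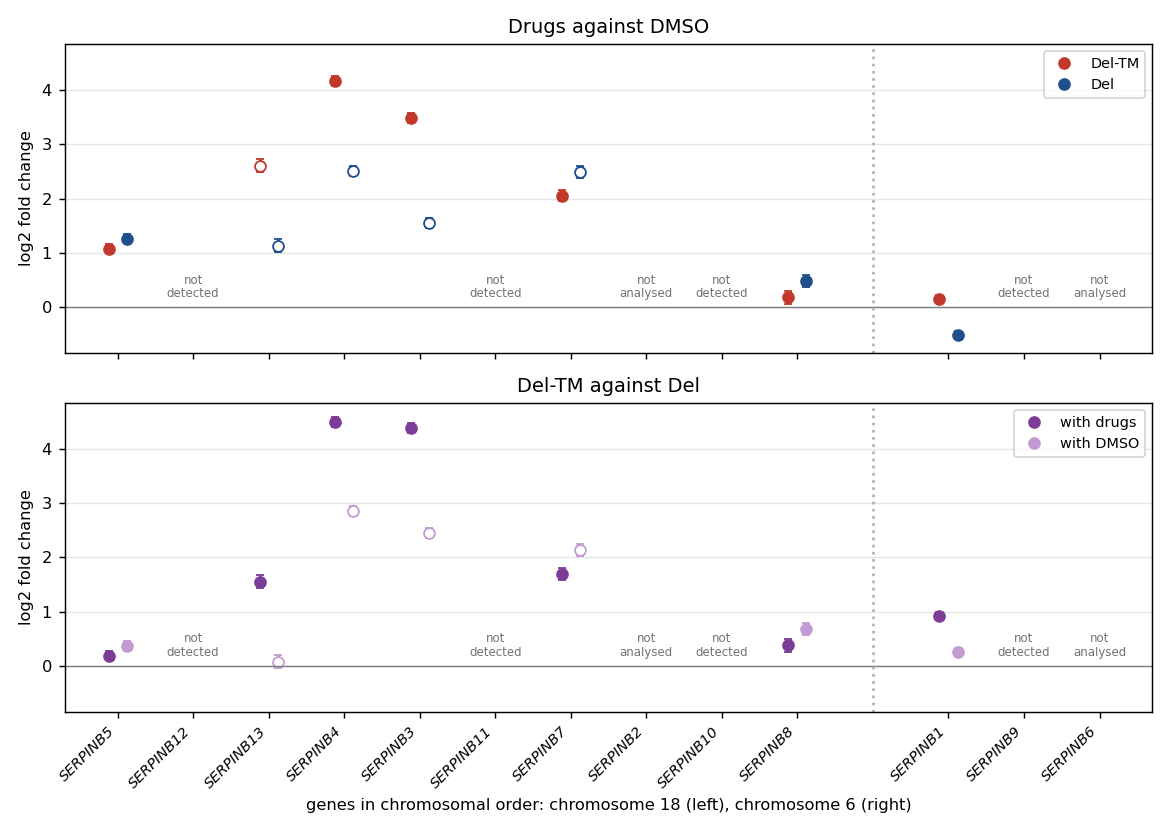
Fitted log2 fold change (y axis, bars ± SE) of clade B genes in chromosomal order (x axis), for drugs against DMSO in Del-TM and Del (upper panel) and for Del-TM against Del with drugs and with DMSO (lower panel). Open points have the DMSO or Del group below detection. SERPINB4 (4.16) and SERPINB3 (3.48) lead the upper panel in Del-TM, genes that were not detected lie between those that rose, and SERPINB1 (-0.52) is the point below 0.

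**Figure D3:**
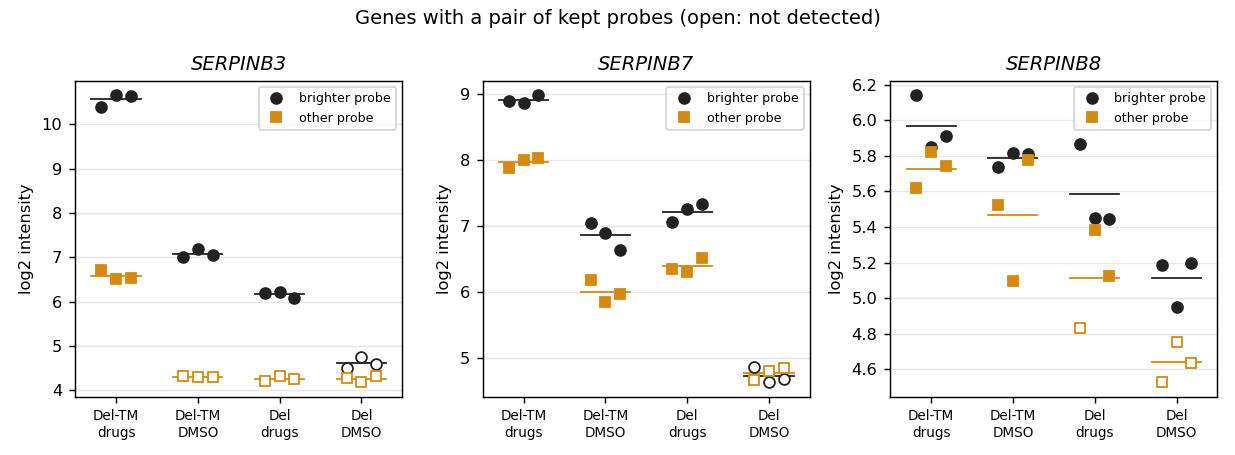
Log2 intensity (y axis) on each array by group (x axis) for the 3 clade B genes with a pair of kept probes, circles for the brighter probe and squares for the other, open where not detected, bars for means of 3. The dimmer SERPINB3 probe is detected in treated Del-TM (6.52 to 6.70) and nowhere else, while both SERPINB7 probes are detected everywhere except in untreated Del.

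Genes flanking the clusters did not share one direction. Over all tested genes, 21.7% were called higher and 24.1% lower with drugs in Del-TM, and 24.8% and 26.5% in Del. These shares stand beside the drug counts of every list below. Around the chromosome 18 cluster, 5 of 9 genes with a probe were tested. In Del-TM 1 rose with drugs and 1 fell: VPS4B, an ATPase of membrane scission next to SERPINB5, by 0.36 (adjusted p = 0.00573) and PHLPP1, a phosphatase acting on AKT, by -0.54 (adjusted p = 0.00363). In Del 2 rose and 1 fell, RELCH by 0.53 (adjusted p = 0.000516), PIGN of GPI-anchor synthesis by 0.21 (adjusted p = 0.0422) and PHLPP1 by -0.89 (adjusted p = 6.41e-05). The list's median was 0.09 in Del-TM and 0.17 in Del. KDSR was at -0.00 in Del-TM and 0.17 in Del (adjusted p = 0.995 and 0.148), and 4 flanking genes, BCL2 among them, were detected on 0 arrays.

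Around the chromosome 6 cluster, 9 of 11 genes were tested, and 2 rose and 2 fell with drugs in either line, with list medians of -0.09 in Del-TM and 0.02 in Del. The β-tubulin TUBB2B was at least 2.26-fold higher with drugs in Del-TM (adjusted p = 1.26e-08) and rose by 4.29 on the log2 scale in Del (SE 0.0850, adjusted p = 2.43e-13). DUSP22, a phosphatase, rose by 0.39 in Del-TM (adjusted p = 0.000717), where the proteasome assembly factor PSMG4 fell by 0.85 (adjusted p = 5.40e-06). In Del, TUBB2A rose by 0.68 (adjusted p = 0.000133) and GMDS, of GDP-fucose synthesis, fell by 0.68 (adjusted p = 6.56e-06). 

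The promoters of the genes that rose were unlike in CpG content, the substrate of the methyltransferases that decitabine inhibits. Counts run over the 300-base windows, of which RefSeq's tables hold 35116, with a median of 14 CpGs and quartiles of 4 and 28. SERPINB4 had 2, SERPINB3 had 3 and SERPINB13 had 4, and 18.2%, 24.5% and 29.6% of all windows had as few. SERPINB8 had 9, SERPINB5 had 16 and, on chromosome 6, SERPINB1 had 27 and SERPINB9 had 35. The 3 windows of SERPINB7 held 0 to 2. Methylation was not measured on these arrays. 

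Stretches of 150 bases before the start are shown for a CpG-poor gene that was detected with drugs only, for SERPINB5, which rose in both lines, and for the CpG-rich SERPINB1 on chromosome 6, with each CpG in capitals (RefSeq, GRCh38.p14; SERPINB13 chr18:63587193-63587342, plus strand; SERPINB5 chr18:63476808-63476957, plus strand; SERPINB1 chr6:2841864-2842013, minus strand).
SERPINB13: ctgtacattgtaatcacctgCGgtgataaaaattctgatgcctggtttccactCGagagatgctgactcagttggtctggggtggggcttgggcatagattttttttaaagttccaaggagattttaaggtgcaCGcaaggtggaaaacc
SERPINB5: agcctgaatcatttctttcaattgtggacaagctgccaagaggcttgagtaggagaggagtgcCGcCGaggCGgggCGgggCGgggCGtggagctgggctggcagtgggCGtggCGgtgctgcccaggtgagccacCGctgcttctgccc
SERPINB1: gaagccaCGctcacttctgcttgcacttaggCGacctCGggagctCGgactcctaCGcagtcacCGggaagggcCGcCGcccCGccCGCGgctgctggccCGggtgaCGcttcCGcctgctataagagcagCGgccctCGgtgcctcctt
The SERPINB13 stretch holds 3 CpGs, that of SERPINB5 holds 9, packed in its middle and 3′ part, and that of SERPINB1 holds 16.

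The letters TGACTCA, the consensus of AP-1 factors, were searched on both strands. They occur in the windows of SERPINB13 and SERPINB8 and in 2 of the 3 windows of SERPINB7, and in 4.95% of all windows. TTCNNNGAA, the core to which STAT factors bind, occurs on either strand in SERPINB8, SERPINB1 and 1 window each of SERPINB7 and SERPINB12, and in 7.66% of all windows. A match is a description of these letters and no more.

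**Figure D4:**
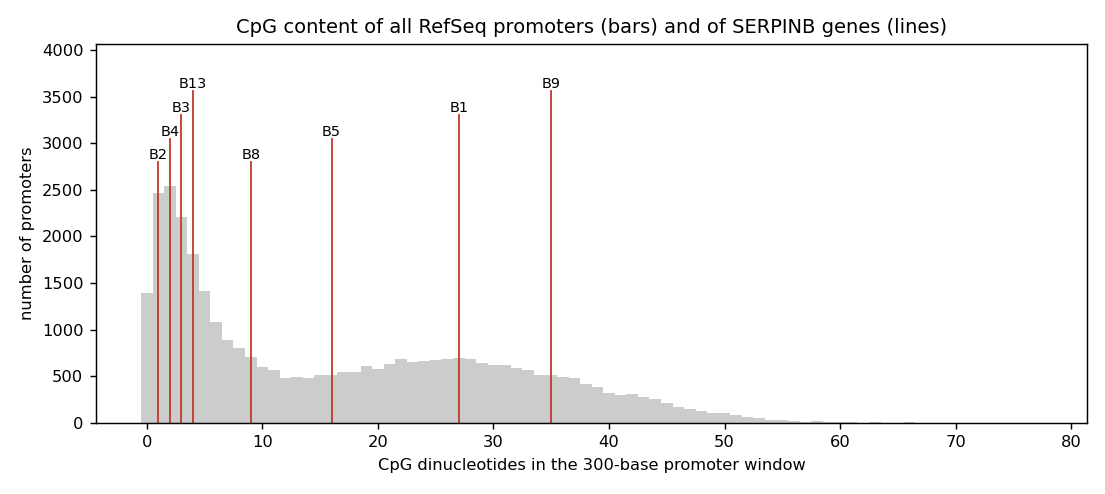
Number of RefSeq promoter windows (y axis, bars) by CpG dinucleotides per 300-base window (x axis), with lines at the counts of SERPINB1, B2, B3, B4, B5, B8, B9 and B13. SERPINB4, SERPINB3 and SERPINB13 (2, 3 and 4 CpGs) lie in the CpG-poor peak, SERPINB5 (16) lies near the median of 14, and SERPINB1 (27) and SERPINB9 (35) lie in the CpG-rich part. SERPINB6, with several start sites, is not drawn.

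Proteases that clade B serpins are known to bind moved in both directions. Of 18 with a probe, 10 were tested, and 5 rose and 1 fell with drugs in Del-TM, while 5 rose and 3 fell in Del (list medians 0.32 and 0.22). Cathepsin L (CTSL), a target of SERPINB3 and SERPINB13, rose by 0.59 in Del-TM (adjusted p = 2.05e-05) and by 1.02 in Del (SE 0.0741, adjusted p = 7.52e-08). Cathepsin S (CTSS), another SERPINB3 target, rose by 0.32 in Del-TM (adjusted p = 0.0214), and in Del it fell by 1.17 (adjusted p = 5.89e-07), with 1 of 3 treated Del arrays detected, so that the size of this fall rests on values below detection. Cathepsin B (CTSB) rose by 0.88 in Del-TM (adjusted p = 5.04e-06) and was at 0.05 in Del (adjusted p = 0.708). 

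The plasminogen activator PLAT, a target of SERPINB2, rose by 0.94 in Del-TM (adjusted p = 6.69e-06) and by 2.63 in Del (adjusted p = 1.30e-10), the effects differing by -1.70 (adjusted p = 1.13e-06). Cathepsin V (CTSV) fell by 0.42 in Del-TM (adjusted p = 0.00035) and rose by 0.82 in Del (adjusted p = 5.76e-07). FURIN, the target of SERPINB8, rose by 0.32 in Del-TM (adjusted p = 0.00493) and by 0.40 in Del (adjusted p = 0.000944). Between untreated lines, cathepsin H (CTSH) was lower in Del-TM by a log2 value of -1.78 (adjusted p = 7.76e-10) and KLK8 at least 1.47-fold lower (adjusted p = 1.12e-06), while CTSL was higher by 0.63 (adjusted p = 1.55e-05). Of the targets of SERPINB4, SERPINB1 and SERPINB9 in this list, CTSG, CMA1, ELANE, PRTN3 and GZMB were detected on 0 of 12 arrays. The granzyme GZMM of the same list was detected on 2 and not tested.

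Serpins of other clades, most of them secreted, rose with drugs where they changed. Of 21 with a probe, 7 were tested, and 5 rose in Del-TM and 7 in Del, with 0 falling in either (list medians 0.86 and 0.98). Over all tested genes, 21.7% were called higher and 24.1% lower in Del-TM, and 24.8% and 26.5% in Del. AGT was detected in treated Del only and SERPINI1 in the treated groups only. The filter kept these genes through the groups where they were high, so no support is drawn from their rise. SERPINA1 (α1-antitrypsin) rose by 1.56 in Del-TM (SE 0.0655, adjusted p = 6.89e-10) and by 1.93 in Del (adjusted p = 2.48e-11). SERPINA3 (antichymotrypsin), which binds cathepsin G as SERPINB4 does, rose by 1.46 in Del-TM (adjusted p = 8.04e-08) and by 3.46 in Del (adjusted p = 6.68e-12). Its difference of drug effects was -2.00 (SE 0.144, adjusted p = 2.06e-07). The fitted values of SERPINB3, SERPINB4 and SERPINB13 were positive, but they rest on groups below detection. SERPINE2 (protease nexin-1) rose by 0.85 and 1.13 in Del-TM and Del (adjusted p = 2.54e-07 and 9.39e-09).

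Across the lines, 4 of these 7 were higher in untreated Del-TM than in untreated Del and 0 lower, SERPINA3 by 2.88 (adjusted p = 7.86e-11), SERPINE2 by 1.78 (adjusted p = 1.53e-10), SERPINA1 by 1.51 (adjusted p = 6.66e-10) and SERPINA5 by 0.86 (adjusted p = 0.000935), which was detected on 1 of 3 untreated Del arrays. Over all tested genes, 16.2% were called higher and 20.3% lower between the untreated lines. The difference of drug effects was negative for 5 of the 7 and positive for 0 (22.3% and 20.3% of all tested genes). Of these 5, AGT and SERPINH1 were below detection in Del-TM. 

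Genes of the type 2 airway response, the setting in which SERPINB3 and SERPINB4 are induced in airway epithelium, gave a mixed picture. Of 12 with a probe, 6 were tested, and 4 rose and 1 fell with drugs in Del-TM, while 2 rose and 3 fell in Del (list medians 0.41 and -0.33). FCGBP, a mucus protein, rose by 3.59 in Del-TM (SE 0.0756, adjusted p = 1.55e-12), was at least 1.97-fold higher with drugs in Del (adjusted p = 3.10e-09) and at least 2.30-fold higher in untreated Del-TM than in untreated Del (adjusted p = 1.07e-09). The chemokine CCL26 (eotaxin-3) rose by 1.13 in Del-TM (adjusted p = 3.42e-07) and by 2.38 in Del (adjusted p = 9.97e-11), and was lower in untreated Del-TM than in untreated Del by a log2 value of -1.87 (adjusted p = 2.27e-09). 

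SPDEF, a transcription factor of goblet cells, fell by 2.77 in Del-TM (adjusted p = 1.50e-10; 2 of 3 treated arrays detected) and by 1.78 in Del (adjusted p = 5.20e-09). The receptor chain IL4R rose by 0.53 in Del-TM (adjusted p = 2.53e-05), while in Del it fell by 0.48 (adjusted p = 4.64e-05), the effects differing by 1.01 (adjusted p = 2.53e-06). STAT6, which carries that receptor's signal to the nucleus, rose by 0.30 in Del-TM (adjusted p = 0.0189) and fell by 0.47 in Del (adjusted p = 0.000951). POSTN, ALOX15 and FOXA3 were detected on 0 arrays.

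Among themselves, the genes of the chromosome 18 cluster followed one another over the 12 arrays in differing degree. Pearson's r was 0.99 between SERPINB3 and SERPINB4, 0.96 between SERPINB4 and SERPINB7, 0.90 between SERPINB4 and SERPINB13, 0.88 between SERPINB5 and SERPINB13, and 0.72 between SERPINB3 and SERPINB5. SERPINB8 gave lower values with some of its neighbours, 0.62 with SERPINB5 and 0.59 with SERPINB13. SERPINB1 on chromosome 6 gave 0.60 with SERPINB3 and -0.10 with SERPINB5. These 12 points share 4 group means, so the values describe the order of groups and nothing finer. 

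Outside clade B, the genes most like SERPINB3 among 11359 detected on all arrays of a group were GBP2 (r = 0.996), SRPX2 (0.993) and TANC2 (0.993). Those most like SERPINB4 were CARHSP1 (0.995), TANC2 (0.994) and ANG (0.993). All had smaller drug effects, GBP2 with log2 values of 0.97 in Del-TM and 0.47 in Del. SERPINB5 was followed most closely by CDC42EP5 (r = 0.990), the cell cycle inhibitor CDKN1A (0.985; log2 fold changes 2.27 in Del-TM and 2.79 in Del) and COXFA4L3 (0.982).

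In Del-TM, where SERPINB3, SERPINB4 and SERPINB13 were highest, no squamous marker with a probe was detected on any array. Of 5 listed squamous markers 3 had a probe, and KRT6A and TP63 were not read. The summed level of KRT5, KRT14 and DSG3 ran from 58.3 to 62.8 in treated Del-TM, 56.8 to 60.7 in untreated Del-TM, 74.6 to 86.0 in treated Del and 58.2 to 64.8 in untreated Del. Outside treated Del these genes were all below detection, so those sums are of undetected values. DSG3 was at least 1.14-fold higher with drugs in Del, and its value of 0.18 in Del-TM did not pass the threshold (adjusted p = 0.193). The filter kept DSG3 through treated Del alone, so no support is drawn from its rise. Of the leukocyte markers, CD14 rose by 1.05 in Del-TM (adjusted p = 1.70e-06) and by 1.57 in Del (adjusted p = 2.02e-08) and was higher by 2.03 in untreated Del-TM than in untreated Del (adjusted p = 2.42e-09). Its difference of drug effects was -0.53 (adjusted p = 0.00889). The fitted values of SERPINB3 and SERPINB4 were positive, but they rest on a group below detection. The summed leukocyte level was 454 to 473 in treated Del-TM, 255 to 256 in untreated Del-TM, 194 to 215 in treated Del and 110 to 115 in untreated Del, with the defining markers PTPRC and CD3E detected on 0 arrays. The part of CD14 in the serpin values was not tested.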

How the data were processed

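RNA was labelled as biotinylated cRNA and read on 12 1-colour Illumina arrays, per the labels' protocols. The authors deposited probe signal intensities, neither background-subtracted nor normalized between arrays, each with a detection p-value, per the file headers, and log2 values that are quantile-normalized, as the deposited values show. The sources used here name no software. Of 47323 probes, 30113 had 1 symbol in the platform annotation, 8 several and 17202 none.

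Intensities were corrected with limma 3.58.1 (R 4.3.3) nec at an offset of 16, quantile-normalized and put on the log2 scale. Probes with detection p under 0.01 on at least 3 arrays were kept (19833), and the kept probe with the highest mean stood for a gene. A linear model of the 4 groups (lmFit, eBayes) gave 5 comparisons over 11808 genes, two-sided and adjusted by Benjamini-Hochberg, with a threshold of 0.05. "At least" sets the brighter group's mean against the other group's mean of, per array, the lowest detected signal or the probe's own, whichever is higher. The number of arrays limits the precision.

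The members and lists were chosen with earlier results of these data known. Adjusted p-values of SERPINB7 and of list genes are not independent of that choice. All members were named, with up to 3 called genes per list and comparison by size, the closest 3 genes to SERPINB3, SERPINB4 and SERPINB5, and marker genes; SERPINB7, KDSR and the remaining list genes given a value were named after their values were seen. The fit was tested on simulated data. Same-numbered replicates deviated from group means with correlations of -0.03 to 0.05 (0 of 18 pairs over 0.1), so the numbers were not taken to pair arrays. Alternatives were other scaling, background, filters, probes, variance models, weights, samples in the fit, thresholds, a replicate block and leaving out each array.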

Additional observations from a re-analysis of the deposited data

Results flagged for a closer look

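The effect of the drugs was called different between the lines, by the fit's own term for that difference, for 5 clade B genes. Over all tested genes, 20.3% were called positive and 22.3% negative. The log2 difference (Del-TM minus Del) was 1.94 for SERPINB3, 1.65 for SERPINB4, 1.48 for SERPINB13 and 0.66 for SERPINB1, genes that were chosen with this contrast known, so that no support is drawn from it. It was -0.43 for SERPINB7, opposite in sign to 0.34 on that gene's other probe. This call was lost or turned under 15 of 26 alternatives and is not settled. For SERPINB3, SERPINB4, SERPINB13 and SERPINB7 the untreated Del group lay below detection, and for SERPINB13 the untreated Del-TM group as well, so the size and the sign of the difference depend on undetected levels.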

How the results depend on the processing

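Of 953 values for single genes under the alternatives, 913 kept their direction and their side of the threshold, 29 lost the call, 7 gained one and 4 turned. The difference of drug effects for SERPINB7 turned to 0.40 without background correction and to 0.41 in the authors' log2 values. The difference of SERPINB13 between untreated lines, both below detection, ran from -0.045 (without untreated Del replicate 3) to 0.20 with 1 array left out, and was -0.03 without untreated Del-TM replicate 1. The cause was not tested. With median scaling 3 of the 6 members were called between untreated lines, against 5. Among genes detected on all 12 arrays just 3 members remained to be tested, and 1 was called for the drugs in Del-TM, 3 for the drugs in Del, 3 between untreated lines, 2 between treated lines and 1 for the difference of effects. With a log2 fold change of at least 1 required, 2 were called between untreated lines and 3 between treated lines, and over all genes 591 for the drugs in Del-TM (5413 without it), 768 in Del (6059), 437 between untreated lines (4307), 1453 between treated lines (7449) and 936 for the difference (5024). At an adjusted p under 0.01, 2866 genes were called between untreated lines. Leaving out each array in turn gave 4 to 4 members for the drugs in Del-TM, 6 to 6 in Del, 5 to 5 between untreated lines, 4 to 5 between treated lines and 4 to 4 for the difference. Over all genes, in the same order, it gave 4802 to 5461, 5082 to 6065, 3669 to 4308, 6624 to 7475 and 4325 to 4786. With the replicate block, SERPINB7's difference of effects (-0.43) had an adjusted p of 0.0503 and lost its call; no other call on clade B genes changed. In the authors' values, SERPINB13's log2 fold changes were 1.20 in Del-TM and 0.38 in Del, and SERPINB7's in Del was 1.13. No block for the chip was fitted, since the labels name none. Signal over background limits every value of a group below detection to a bound.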
